A study of Homo sapiens with 12 samples.

Results

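The genes examined here are 10 markers and regulators of the stem-like state of breast cancer cells: the surface proteins CD44, CD24, PROM1 and PROCR, the aldehyde dehydrogenases ALDH1A1 and ALDH1A3, the transcription factors SOX4, SOX9 and MYC, and the Polycomb protein BMI1. They were chosen by symbol and taken as the rows of the count table whose Ensembl identifiers map to those symbols. Identifiers were found for 9 of the 10 genes among the 63568 in the table. CD24 was not matched by the tables of gene names used here and was not analysed here. Of the 9, ALDH1A1 did not pass the filter on low counts, so 8 were tested among 25249 genes.

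The cells were MDA-MB-231, a triple negative breast cancer (TNBC) line labelled as wild type, carrying a nuclear green fluorescent protein and grown in 3D in droplets of Matrigel, a basement membrane gel. Bulk RNA was sequenced from 6 conditions with 2 samples each, 12 samples in all. C1 and C2 are untreated cells at day 2 and day 4. The other 4 conditions are day 4 cells given Paclitaxel, a drug that binds and stabilises microtubules, at 0.0005, 0.005, 0.05 or 0.5 µM, which the labels say was added on day 2. The conditions share the line, the gel and the collagenase and dispase step that freed the cells. They are 1 line. The study's methods call the samples of a condition biological replicates, without saying whether each came from a culture of its own, so p-values measure the spread between these samples. The comparisons ask what the drug did beside untreated cells of the same day, and what further culture did without it.

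A stem-like breast cancer cell is usually defined by high CD44 with low CD24, by aldehyde dehydrogenase activity, or by surface markers such as prominin 1, and such cells are often linked with survival of taxane treatment. CD44 binds hyaluronan, the aldehyde dehydrogenases oxidise retinal to retinoic acid, and SOX4, SOX9 and BMI1 act in the nucleus to hold cells in an immature state. MYC dimerises with MAX on E-box DNA, raises ribosome and nucleotide synthesis and represses genes that arrest growth. MDA-MB-231 is a mesenchymal line long known for high CD44.

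The DNA before the start of 4 of the genes is shown to set these pairs side by side. ALDH1A1 and ALDH1A3 are sister enzymes at very unequal levels. SOX4 was the member with the clearest order along the doses, though its slope was not called, and BMI1 was the steadiest member. RefSeq windows (GRCh38.p14) were held for 8 of the 10 genes, and each sequence below is the 250 bases before the start, 5′ to 3′ on the strand of the gene. ALDH1A1 is at chr9:72953054-72953303 on the minus strand, ALDH1A3 at chr15:100879581-100879830 on the plus strand, SOX4 at chr6:21593501-21593750 on the plus strand and BMI1, at the first of its 2 listed starts, at chr10:22320849-22321098 on the plus strand. Capitals mark any match, on either strand, to one of 4 motifs. The E-box was searched as CACGTG. The CCAAT box was searched as its name spells it, the GC box as GGGCGG and the TATA box as TATAAA, each with its reverse complement.
ALDH1A1: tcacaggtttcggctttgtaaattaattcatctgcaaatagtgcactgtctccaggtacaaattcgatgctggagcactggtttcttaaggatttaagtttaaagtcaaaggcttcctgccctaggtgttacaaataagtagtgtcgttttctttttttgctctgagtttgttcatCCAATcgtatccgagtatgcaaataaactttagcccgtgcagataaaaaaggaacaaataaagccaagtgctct
ALDH1A3: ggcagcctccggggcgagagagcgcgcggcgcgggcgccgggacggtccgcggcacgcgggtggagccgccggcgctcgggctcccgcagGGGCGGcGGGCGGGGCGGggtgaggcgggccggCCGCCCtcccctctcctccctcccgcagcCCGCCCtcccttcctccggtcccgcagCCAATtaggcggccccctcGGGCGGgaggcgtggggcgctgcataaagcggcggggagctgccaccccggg
SOX4: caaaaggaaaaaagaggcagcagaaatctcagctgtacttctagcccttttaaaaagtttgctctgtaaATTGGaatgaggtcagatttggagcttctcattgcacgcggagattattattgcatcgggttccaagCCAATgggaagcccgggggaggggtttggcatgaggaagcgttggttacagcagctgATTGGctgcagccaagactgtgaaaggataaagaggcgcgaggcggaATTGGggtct
BMI1: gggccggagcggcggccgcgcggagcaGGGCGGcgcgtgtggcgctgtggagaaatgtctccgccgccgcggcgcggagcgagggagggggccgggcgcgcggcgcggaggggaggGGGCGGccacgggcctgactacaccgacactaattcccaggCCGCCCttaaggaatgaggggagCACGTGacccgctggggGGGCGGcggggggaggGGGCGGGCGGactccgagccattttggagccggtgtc
The ALDH1A1 window was 38.4% G and C and held 1 CCAAT box, at -74 to -70 from the start. The ALDH1A3 window was 82.4% G and C and held 1 CCAAT box and 6 GC boxes, a pair of which share a base. The SOX4 window, 48.8% G and C, held 4 CCAAT boxes and none of the other motifs. The BMI1 window was 76.8% G and C and was the only one of the 4 with an E-box, at -70 to -65, beside 6 GC boxes, the last pair of which overlap. Over all 35116 windows of this length, 32.0% held a CCAAT box, 42.6% a GC box, 6.34% an E-box and 10.7% a TATA box, and the median G and C content was 58.0%. A match is a string of letters and was not tested as a binding site.

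The 12 samples held 38380629 to 79169121 counts, with a median of 65977096. Levels are given as counts per 1000000 (CPM) after TMM scaling, and differences as log2 fold changes from edgeR, where a gene is said to rise or fall if its p-value adjusted over all genes tested is under 0.05. The markers of the line were present (VIM 1057 CPM on average) and ESR1 (0.276 CPM), PGR (0.0297 CPM) and CDH1 (0.104 CPM) were near 0, while of the other genes taken as low in this line ERBB2 stood at 32.8 CPM, EPCAM at 5.06 CPM and GRB7 at 1.87 CPM, and the luminal keratin KRT8 at 417 CPM. The summed level of 6 leukocyte markers stayed at or below 1.80 CPM, that of 4 endothelial markers at or below 3.24 CPM and that of 9 fibroblast markers at 9.34 to 21.9 CPM. The C1 samples stood apart: their SD of log2 differences was 0.576 against 0.0907 to 0.230 in the other pairs, replicate 2 was the shallowest of all, and their levels sloped in opposite directions with GC content (0.171 and -0.197 log2 per 10% of GC). The treated samples detected more genes (34591 to 39480 with a count) than the untreated ones (30608 to 33824).

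CD44, the hyaluronan receptor (ENSG00000026508, GRCh37 chr11:35160429-35253949), was the most abundant member and changed in no comparison. CD44 stood at 388 and 251 CPM in C1, 286 and 266 CPM in C2, 307 and 299 CPM at 0.0005 µM, 257 and 263 CPM at 0.005 µM, 273 and 282 CPM at 0.05 µM and 253 and 237 CPM at 0.5 µM. Day 4 samples thus lay within 237 to 307 CPM and the widest gap was that inside C1. The log2 difference from C2 was 0.13 (SE 0.18) at the lowest dose and -0.17 (SE 0.18, 95% interval -0.56 to 0.22) at the highest. Along the doses the slope was -0.08 log2 per 10-fold dose (SE 0.041, adjusted p = 0.298).

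PROCR, the endothelial protein C receptor that marks multipotent mammary stem cells (ENSG00000101000, chr20:33759875-33804043), did not change either. Its values were 36.7 and 55.0 CPM in C1, 36.9 and 38.3 CPM in C2, 39.5 and 44.1 CPM at 0.0005 µM, 35.1 and 37.3 CPM at 0.005 µM, 35.7 and 26.4 CPM at 0.05 µM and 37.7 and 35.0 CPM at 0.5 µM. The low mean at 0.05 µM came from replicate 2 alone. The log2 difference from C2 ran from -0.28 (SE 0.19) at 0.05 µM to 0.15 (SE 0.19) at 0.0005 µM.

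PROM1, which encodes prominin 1 or CD133, a cholesterol-binding protein of membrane protrusions (ENSG00000007062, chr4:15964699-16086001), was the only member called in any comparison, at a level of a few counts per sample. PROM1 had 2 and 1 counts in C1, 1 and 3 in C2, 12 and 4 at 0.0005 µM, 13 and 10 at 0.005 µM, 10 and 8 at 0.05 µM and 15 and 13 at 0.5 µM. Every treated sample was above every untreated one, from 0.068 to 0.239 CPM against 0.0164 to 0.0552 CPM. PROM1 passed the filter on low counts through treated samples alone, so it was tested because it is high there. At 0.5 µM PROM1 rose by a fitted 2.67 (SE 0.68, adjusted p = 0.0405) on the log2 scale. With only 4 counts in C2 the ratio of summed counts was 6.68 at 0.5 µM (95% exact interval 2.34 to 26.2, for counting error only). It was 4.32 over the 8 treated samples (1.62 to 16.2). These ratios use the same selected counts, leave out the spread between samples and are no further support for a rise. That 1 of 8 tested members was called at 0.5 µM stands beside 6.32% of all genes tested. Among the 4993 genes of similar level (0.05 to 0.25 CPM), 4.69% were called higher at 0.5 µM and 17.4% had all 8 treated samples above both of C2. Summed RNA markers of other cell types were also higher in treated samples. The leukocyte sum was 0.537 to 0.871 CPM in untreated and 1.31 to 1.80 CPM in treated samples. The endothelial sum was 0.626 to 1.65 and 2.08 to 3.24 CPM. Their largest parts were CD14 (0.511 CPM in C2, 1.41 CPM at 0.5 µM) and KDR (0.705 and 1.58 CPM). Not all markers rose: CD68 was at 0.0859 CPM in C2 and 0.0259 CPM at 0.5 µM. The part of these markers in the PROM1 result, and in the values of ALDH1A1 given later, was not tested. The PROM1 call was lost with DESeq2 (adjusted p = 0.0604) and on leaving out any 1 of the day 4 samples (adjusted p 0.0522 to 0.324), while it held without either C1 sample. The log2 value was 2.03 without C2 replicate 1 and 3.67 without C2 replicate 2. In bulk RNA, fewer cells of a type and less RNA per cell cannot be told apart. FGFBP2, on the same strand, shares 2.23% of the exon bases and had 156 counts to 92 for PROM1.

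**Figure D1:**
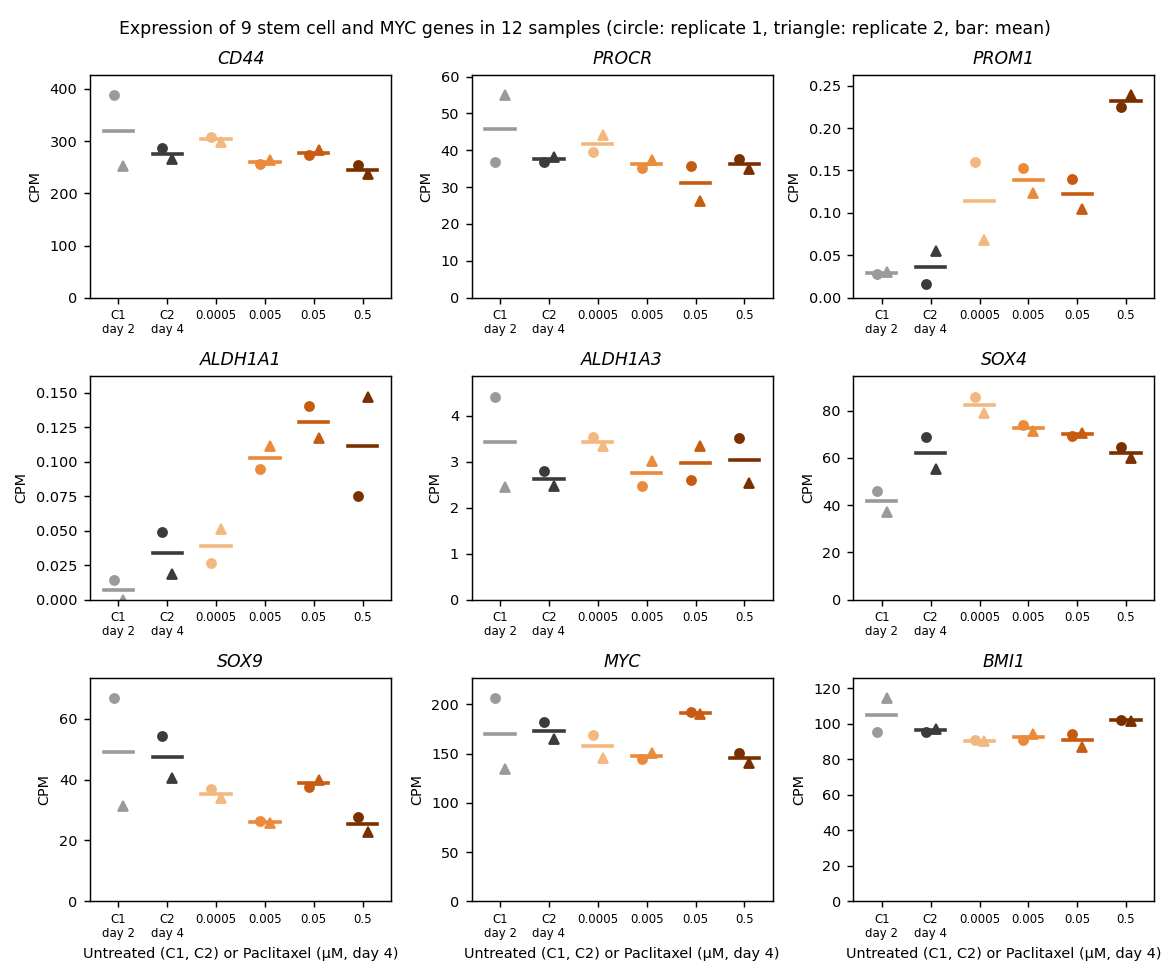
CPM (linear axis from 0) of the 9 genes in each of the 12 samples, by condition, with circles for replicate 1, triangles for replicate 2 and bars for the mean of 2. SOX9 lies below both C2 samples in all 8 treated samples, SOX4 is highest at 0.0005 µM (79.0 and 85.9 CPM) and PROM1 and ALDH1A1 never exceed 0.239 CPM.

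ALDH1A1, the retinal-oxidising enzyme most used to define stem-like cells (ENSG00000165092, chr9:75515587-75695358), was almost absent. Its counts were 1 and 0 in C1, 3 and 1 in C2, 2 and 3 at 0.0005 µM, 8 and 9 at 0.005 µM, 10 and 9 at 0.05 µM and 5 and 8 at 0.5 µM, that is 0 to 0.147 CPM. The lowest dose overlapped C2 and the 3 higher doses lay above it, as did 50.5%, 38.7% and 42.5% of the genes of its level (0.05 to 0.25 CPM) at those doses, which unlike ALDH1A1 had passed the filter. The ratio of summed counts to C2 was 1.08 (0.232 to 5.43) at 0.0005 µM, 2.96 (0.967 to 12.1) at 0.005 µM, 3.71 (1.23 to 15.0) at 0.05 µM and 3.10 (0.958 to 13.1) at 0.5 µM, with 2.74 (1.01 to 10.4) over all treated samples. ALDH1A1 was below the count filter and was not tested in the main fit.

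ALDH1A3, the isoform linked with aldehyde dehydrogenase activity in breast cancer (ENSG00000184254, chr15:101417919-101456831), was present at a few CPM in every sample. It was at 4.41 and 2.45 CPM in C1, 2.78 and 2.47 CPM in C2, 3.54 and 3.33 CPM at 0.0005 µM, 2.48 and 3.02 CPM at 0.005 µM, 2.60 and 3.33 CPM at 0.05 µM and 3.51 and 2.54 CPM at 0.5 µM. Treated and C2 samples overlapped except at the lowest dose, where the log2 difference was 0.39 (SE 0.27, adjusted p = 0.492). No comparison called it. The antisense gene ALDH1A3-AS1 shares 32.1% of its exon bases, and since the strand setting of the counting is not stated, reads of the 2 genes (2428 and 684 counts) cannot be fully told apart.

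Per kilobase of exon, the scale on which genes can be compared, the mean levels over the 12 samples were 28.0 CPM for CD44, 26.9 for MYC, 22.5 for PROCR, 21.9 for BMI1, 13.4 for SOX4 and 9.40 for SOX9. ALDH1A3 followed at 0.569, ALDH1A1 at 0.0248 and PROM1 at 0.0150 CPM per kilobase. On this scale the sample ranges of CD44, MYC, PROCR and BMI1 overlapped, whereas those of the 3 low genes lay below every sample of the other 6. The line thus held high CD44 RNA, little ALDH1A3 and traces of ALDH1A1 and PROM1 under all 6 conditions.

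**Figure D2:**
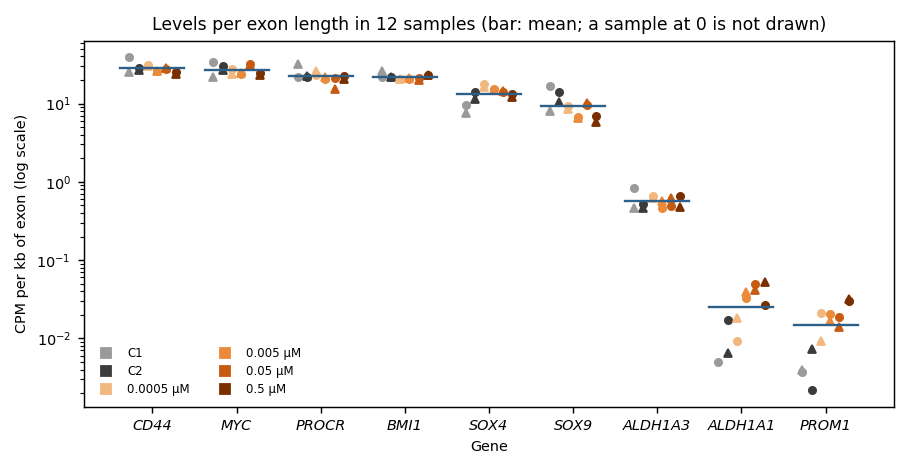
CPM per kilobase of exon on a log axis for the 9 genes, ordered by mean, with 1 point per sample coloured by condition and a bar for the mean of 12 samples. The first 6 genes average 9.40 to 28.0 and the last 3 average 0.0150 to 0.569.

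SOX4, a SOX factor induced by TGF-beta that takes part in epithelial-mesenchymal transition (ENSG00000124766, chr6:21593982-21598850), was lowest at day 2 and highest at the lowest dose. SOX4 stood at 46.0 and 37.0 CPM in C1, 68.9 and 55.1 CPM in C2, 85.9 and 79.0 CPM at 0.0005 µM, 74.0 and 71.5 CPM at 0.005 µM, 69.1 and 70.6 CPM at 0.05 µM and 64.5 and 59.8 CPM at 0.5 µM. All 10 day 4 samples were above both day 2 samples, and the doses followed in order with no overlap between neighbours. The share of all genes with either pattern was not counted. The log2 difference of C2 from C1 was 0.58 (SE 0.15, adjusted p = 0.236) and was called in 2 of 18 alternatives. It was 0.41 (SE 0.15, adjusted p = 0.193) for 0.0005 µM against C2, a value that ran from 0.25 to 0.70 over 19 alternatives and was called in 5 of them, and 0.00 (SE 0.15, 95% interval -0.33 to 0.34) for 0.5 µM. The slope was -0.13 log2 per 10-fold dose (SE 0.034) and missed the threshold at an adjusted p of 0.0578. The slope was called with DESeq2 (adjusted p = 0.00329), with RLE scaling (0.0486), with GC and length offsets (0.0199) and without replicate 2 of 0.05 µM (0.0289). None of the 8 tested members was called in the slope, where 3.15% of genes were, or in C2 against C1, where 0.325% were. With 2 samples a group, groups fail to overlap often: 31.2% of genes did so between C2 and C1, and 53.0%, 62.1%, 52.9% and 59.0% between C2 and the doses from the lowest to the highest.

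SOX9, which with SNAI2 can convert luminal cells to mammary stem cells (ENSG00000125398, chr17:70117161-70122557), was lower in treated than in C2 samples without passing the test. SOX9 was at 66.7 and 31.3 CPM in C1, 54.4 and 40.5 CPM in C2, 36.9 and 33.9 CPM at 0.0005 µM, 26.3 and 25.8 CPM at 0.005 µM, 37.5 and 40.0 CPM at 0.05 µM and 27.6 and 22.9 CPM at 0.5 µM. All 8 treated samples were below both C2 samples, as for 11.3% of all genes tested, though at 0.05 µM by under 1 CPM. The log2 difference from C2 was -0.91 (SE 0.27, adjusted p = 0.0710) at 0.5 µM, -0.87 (SE 0.27, adjusted p = 0.111) at 0.005 µM, -0.42 (SE 0.27) at 0.0005 µM and -0.29 (SE 0.27) at 0.05 µM. The mean over the doses was -0.62 (SE 0.21, adjusted p = 0.0790). The order was not one of dose, and the slope was -0.08 (SE 0.075). These SEs carry the gap between the C1 samples, which for SOX9 was 1.09 on the log2 scale. C1 is not part of the comparison at 0.5 µM and enters it only through the shared spread. Without C1 replicate 1 the value at 0.5 µM was -0.92 and without C1 replicate 2 it was -0.91, whereas without C2 replicate 1 it was -0.68. At 0.5 µM it was called in 8 of 19 alternatives. The difference of C2 from C1 for SOX9 was -0.05 (SE 0.27), and it became 0.60 (adjusted p = 0.0330) without C1 replicate 1 and -0.46 without C1 replicate 2. Both rest on 1 day 2 sample, assumed to vary like the other groups.

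MYC, the driver of growth and ribosome synthesis (ENSG00000136997, on chromosome 8), changed in no comparison. MYC stood at 206 and 134 CPM in C1, 182 and 164 CPM in C2, 169 and 146 CPM at 0.0005 µM, 144 and 150 CPM at 0.005 µM, 193 and 190 CPM at 0.05 µM and 151 and 140 CPM at 0.5 µM. The 0.05 µM samples were the highest at day 4, and the samples of the other doses were below both of C2 except 1 at the lowest dose. The log2 difference from C2 was 0.14 (SE 0.18) at 0.05 µM and -0.25 (SE 0.18, 95% interval -0.65 to 0.15, adjusted p = 0.443) at 0.5 µM, and the slope was 0.01 (SE 0.054). The interval at 0.05 µM ran from -0.26 to 0.54.

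BMI1, a core subunit of Polycomb repressive complex 1 (ENSG00000168283, chr10:22610028-22620413), was the steadiest member. It stood at 95.7 and 114 CPM in C1, 95.5 and 97.3 CPM in C2, 90.8 and 90.1 CPM at 0.0005 µM, 90.8 and 94.1 CPM at 0.005 µM, 94.1 and 87.2 CPM at 0.05 µM and 102.2 and 101.6 CPM at 0.5 µM. Its highest and lowest condition means differed 1.16-fold, the narrowest range of the 9 genes. Samples at the 3 lower doses were below C2 and those at 0.5 µM above it, by log2 differences of -0.09 to 0.08 (SE 0.13 each). The readthrough gene COMMD3-BMI1 shares 22.8% of the exon bases and had 47 counts against 74894.

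**Figure D3:**
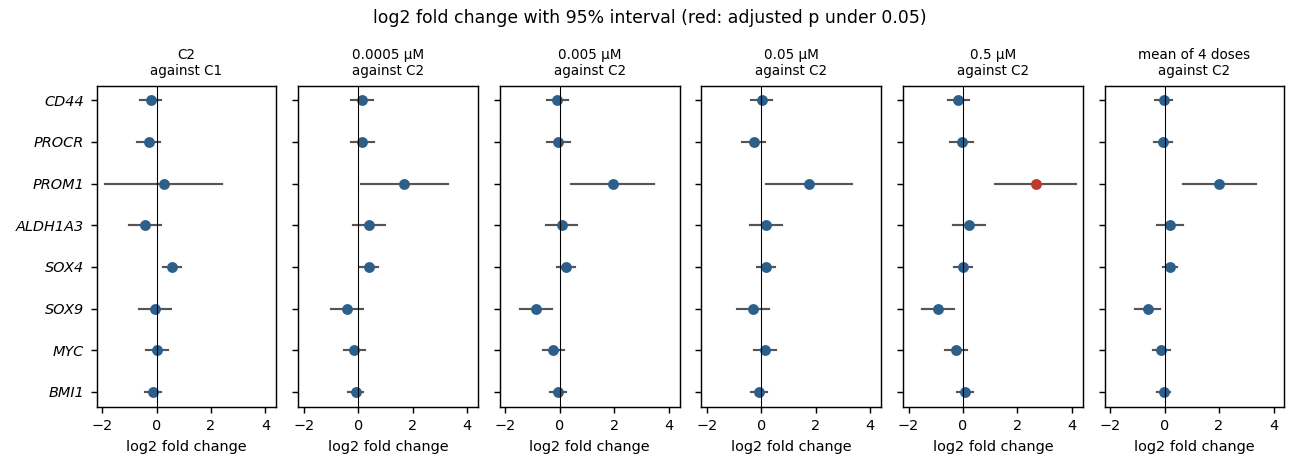
log2 fold change (points) with its 95% interval (lines) for the 8 tested members in 6 comparisons, red where the adjusted p is under 0.05. PROM1 at 0.5 µM (2.67) is the only red point, and SOX9 at 0.005 µM (-0.87) and 0.5 µM (-0.91) are the lowest points.

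Against C2, none of the 8 tested members was called at 0.0005, 0.005 or 0.05 µM or in the mean of the doses, while 2.34%, 3.28%, 8.32% and 9.74% of all genes tested were. The median log2 difference of the members from C2 was 0.14, -0.06, 0.07 and -0.02 from the lowest to the highest dose, against medians between -0.01 and 0.04 over all genes and of -0.04, -0.12, -0.11 and -0.11 over the 11193 genes of at least 8 CPM, where 6 of the 8 members lie. These 5 comparisons share the C2 samples and are not independent.

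The genes whose levels followed 7 of the members most closely were found among 11010 named genes of at least 5 CPM by the root mean square difference of centred log2 CPM over the 12 samples, as a description. They were ARID5A (0.0817), PNRC1 and TRIM16 for SOX4, ATG9A (0.0861), ACTB and RNPEP for SOX9, and UBE2A (0.0514), NMT1 and SRP68 for CD44. For MYC they were TCTN2 (0.0618), IPO13 and SLC12A4, and for BMI1 INTS10 (0.0409), PTCD3 and RANBP6. The match was loosest for ALDH1A3, with DHX8 (0.143), ZFPM1 and HSPB1, and for PROM1, with CCDC62 (0.347), ADIRF-AS1 and NEK10. The C1 gap is part of each of these patterns.

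The other genes of each pathway are described by 12 lists, with the mean of the 4 doses against C2 unless another comparison is named. Unless levels are named, values are log2 differences. The summed leukocyte and endothelial markers, at trace levels, were higher in every treated than in every untreated sample, and their part in the rise of any list gene near or below 1 CPM (DHRS9, DCLK1, LGR5, ALDH1A2, SOX2, SOX21, SOX30, MYCL, TNFAIP6, SPP1, MMP9 and S1PR1) was not tested. Of the 21 list genes named by rule as called in that mean, 4 (TXNIP, GADD45A, SKP2 and DHRS9) kept the call in all 18 alternatives, and the other 17 lost it without C2 replicate 1. Of 21 further calls given outside that rule, chosen after their values were seen, TNFAIP6 in the mean and along the doses and CDKN1A along the doses were kept in every alternative, and 16 were lost without C2 replicate 1. TNFAIP6 passed the filter on low counts through treated samples alone, so its call in the mean was tested because it is high there. Over all genes tested, 5.64% were called higher and 4.1% lower in the mean of the doses, and the median log2 difference was 0.00.

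Among 28 other stem cell markers 4 rose and 7 fell, with a median log2 difference of 0.00. ABCG2, a drug efflux pump that marks side population cells, rose at 0.5 µM by 0.86 (SE 0.16, adjusted p = 0.0123), with 16.2 ± 0.689 CPM (SD, n = 2) there and 8.89 ± 0.443 CPM in C2. Its slope of 0.17 per 10-fold dose (adjusted p = 0.0420) was called in only 4 of 13 alternatives, and C1 stood at 13.2 ± 2.18 CPM. TNFRSF11B, the decoy receptor osteoprotegerin, rose by 0.99 (SE 0.17, adjusted p = 0.00535) and was highest at the lowest dose, 20.2 ± 0.257 CPM against 7.60 ± 0.39 CPM in C2. DCLK1, a microtubule-associated kinase of tuft cells, rose by 0.93 (SE 0.18), and LGR5, a Wnt-pathway receptor below 1 CPM that was named after its values were seen, by 1.62 (SE 0.32).

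KLF4, one of the reprogramming factors, fell furthest, by 1.14 (SE 0.15, adjusted p = 0.00123). It went from 154 ± 27.2 CPM in C2 to 54.5 ± 5.03 CPM at 0.5 µM, where its fall of 1.50 on the log2 scale held in all 19 alternatives. The integrins ITGB3, ITGA6 and ITGA2 fell by 0.95 (SE 0.24), 0.61 (SE 0.13) and 0.43 (SE 0.12) on the log2 scale. The intermediate filament NES fell by 0.76 (SE 0.21), and GPRC5A and the RNA-binding protein MSI2, named after their values were seen along with ITGA2, fell by 0.70 and 0.43. The fall of ITGA6 in the mean held in 17 of 18 alternatives, all but that without C2 replicate 1. The call in the mean was made for ITGB3 in 11 of the 18, for NES in 9, for ITGA2 and GPRC5A in 8 each and for MSI2 in 14.

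Of 15 other aldehyde dehydrogenases 1 rose and 2 fell. ALDH7A1 and ALDH3A2, which clear aldehydes from lysine breakdown and from lipids, fell by 0.44 (SE 0.13) and 0.43 (SE 0.11). Both calls were lost under GC and length offsets. ALDH1A2, another retinal dehydrogenase, below 1 CPM and named after its values were seen, rose by 1.33 (SE 0.30) from 0.182 ± 0.00276 CPM in C2 to 0.601 ± 0.128 CPM at 0.0005 µM. Of 22 retinoic acid genes DHRS9, which oxidises retinol, rose by 2.29 (SE 0.32, adjusted p = 0.00144), from 0.307 ± 0.122 CPM to 1.33 to 1.83 CPM at the 4 doses. The receptor RARB fell by 0.45 (SE 0.13, adjusted p = 0.0465), a call made in 5 of 18 alternatives and lost under the offsets too. CRABP2, a retinoic acid carrier named after its values were seen, rose from C1 to C2 by 0.90 (SE 0.14, adjusted p = 0.0109).

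Of 11 other SOX genes only SOX30, at 0.141 CPM, rose in the mean, by 2.11 (SE 0.57), and like SOX2 it passed the filter through treated samples alone. That call was made in 8 of 18 alternatives and was lost with DESeq2. At 0.05 µM SOX2, SOX21 and SOX30 were called higher, all named after their values were seen, beside 5.09% of all genes and 6.33% of those at 0.05 to 0.25 CPM, so their number is no support for a change of the list. The call at 0.05 µM was made in 11 of 19 alternatives for SOX2, in 9 for SOX21 and in 7 for SOX30. SOX30 lost it with DESeq2 and with the replicate block. SOX21 went from 1.33 ± 0.454 CPM to 2.77 ± 0.393 CPM, and SOX2 had 2 counts in C2 and 35 at 0.05 µM, a ratio of 13.7 (3.51 to 117). The 2 most abundant, SOX12 (28.5 ± 2.97 CPM in C2) and SOX13 (17.3 ± 2.45 CPM), had log2 differences of -0.32 (SE 0.19) and -0.01 (SE 0.20).

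Of 52 MYC target genes, mostly of nucleolar, nucleotide and translation roles, 1 rose and 1 fell, with a median of 0.01. SLC3A2, the heavy chain of an amino acid transporter, rose by 0.67 (SE 0.17, adjusted p = 0.0309), from 136 ± 8.07 CPM to 255 ± 14.3 CPM at 0.05 µM. E2F1, an S-phase factor, fell by 0.85 (SE 0.17, adjusted p = 0.00978), from 27.5 ± 2.24 CPM to 14.8 to 16.3 CPM at the doses. SHMT2, a mitochondrial enzyme of serine use, fell by 0.55 (SE 0.15, adjusted p = 0.0472) at 0.5 µM. That call was made in 9 of 19 alternatives and was lost on leaving out any 1 of the day 4 samples. In the mean the call was made in 9 of 18 alternatives for SLC3A2 and in 16 for E2F1.

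Between the untreated days the MYC targets were lower on average: 49 of 52 had a negative log2 difference of C2 from C1, as did 52.7% of all genes and 68.1% of the 11193 of at least 8 CPM. Their median was -0.35 against -0.02 over all genes and -0.10 over those of at least 8 CPM. The mitochondrial share of counts was 4.19% and 7.74% in C1, the latter the highest of the 12 samples, against 4.72% and 5.97% in C2, and its part in this was not tested. None of the 52 was called in that comparison. The median was -0.28 to -0.38 in every alternative, and 10 of the 52 were called lower without C1 replicate 1, where 5.69% of all genes were, and 14 without C1 replicate 2, where 5.01% were. Those calls rest on 1 day 2 sample, assumed to vary like the other groups, and are no support for a change of the list. MYC RNA differed by 0.03 (SE 0.18) between those days.

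Of 15 genes that MYC represses 2 rose and none fell. TXNIP, an inhibitor of thioredoxin and glucose uptake, rose by 1.58 (SE 0.16, adjusted p = 0.000194), from 149 ± 6.80 CPM in C2 to 353 to 540 CPM at the doses. GADD45A, a stress-induced growth arrest gene, rose by 1.02 (SE 0.12, adjusted p = 0.000392), from 36.3 ± 1.89 CPM to 63.2 to 91.9 CPM. The median of this list was -0.06. NDRG1 and CDKN1A, named after their values were seen, both fell along the doses, by 0.31 per 10-fold dose on the log2 scale, with their highest levels at 0.0005 µM, and NDRG1 rose from C1 to C2 by 0.91 (SE 0.16, adjusted p = 0.0373, called in 5 of 18 alternatives).

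Of 26 MYC network genes SKP2, the F-box protein that marks MYC and p27 for degradation, fell by 0.83 (SE 0.11, adjusted p = 0.000774), from 30.3 ± 0.911 CPM in C2 to 15.3 to 18.6 CPM at the doses. AURKA, a mitotic kinase that stabilises MYC family proteins, rose at 0.5 µM by 0.75 (SE 0.17, adjusted p = 0.0247), to 153 ± 11.3 CPM from 91.5 ± 2.82 CPM. That call was made in 13 of 19 alternatives, and C1 stood at 135 ± 1.62 CPM. MYCL, below 1 CPM and named after its values were seen, rose by 0.77 (SE 0.20).

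**Figure D4:**
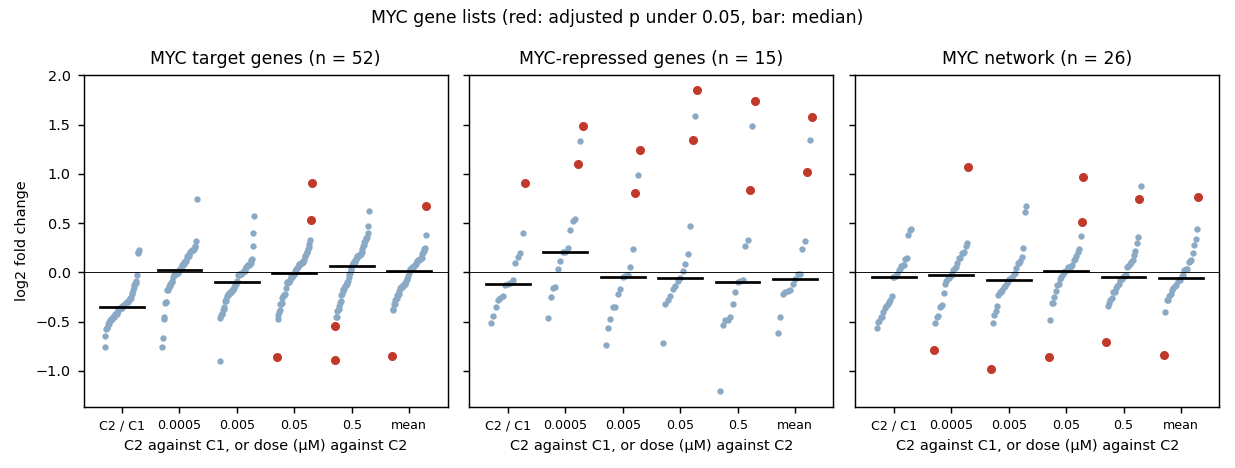
log2 fold changes of the genes in 3 MYC lists for C2 against C1, each dose against C2 and the mean of the doses, sorted within a column, with red points for adjusted p under 0.05 and bars for medians. The target list has a median of -0.35 in C2 against C1 and of 0.01 in the mean of the doses, and TXNIP (1.58) is the top red point of the repressed list in that mean.

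Polycomb genes were mostly on the lower side, as were abundant genes as a whole, whose median in the mean of the doses was -0.10 over those of at least 8 CPM. Negative differences were found for 15 of 21 PRC1 and 8 of 11 PRC2 genes, beside 66.1% of the genes of at least 8 CPM. Of 21 other PRC1 genes none rose and 3 fell, with a median of -0.20: PHC1 by 0.67 (SE 0.18), SCMH1 by 0.59 (SE 0.15) and CBX7 by 0.57 (SE 0.15). These calls were made in 10, 9 and 8 of 18 alternatives. Of 11 PRC2 genes RBBP4, a histone-binding subunit shared with other complexes, fell by 0.43 (SE 0.10), with a median of -0.28. BMI1 in the same mean was at -0.04 (SE 0.10).

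Of 24 hyaluronan and CD44 partner genes 3 rose and 1 fell. The 3 that rose were all near 0 in C2 and were named after their values were seen. All 3 passed the filter on low counts through treated samples alone, so their number is no support for a change of the list. TNFAIP6, a hyaluronan-binding protein of inflammation, had 1 count in C2 and 171 at 0.0005 µM, 124 at 0.005 µM, 54 at 0.05 µM and 20 at 0.5 µM. It thus fell along the doses, at -0.96 log2 per 10-fold dose (SE 0.11, adjusted p = 0.000372). SPP1, the CD44 ligand osteopontin, had 1 count in C2 and 163 over the treated samples, and MMP9, a protease that docks on CD44, had 1 and 120. The fall was that of ADAM10, a sheddase that cuts CD44, by 0.41 (SE 0.11, adjusted p = 0.0384), called in 8 of 18 alternatives and lost under GC and length offsets.

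Of 21 genes around the protein C receptor SERPINE2, a protease inhibitor, rose by 0.47 (SE 0.13), a call made in 8 of 18 alternatives. S1PR1, a sphingosine phosphate receptor below 1 CPM that was named after its values were seen, rose by 1.12 (SE 0.23). None of 8 prominin and CD24 partners was called. CTNNB1 and FYN, the most abundant of these, had log2 differences of -0.01 (SE 0.12) and -0.28 (SE 0.15).

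**Figure D5:**
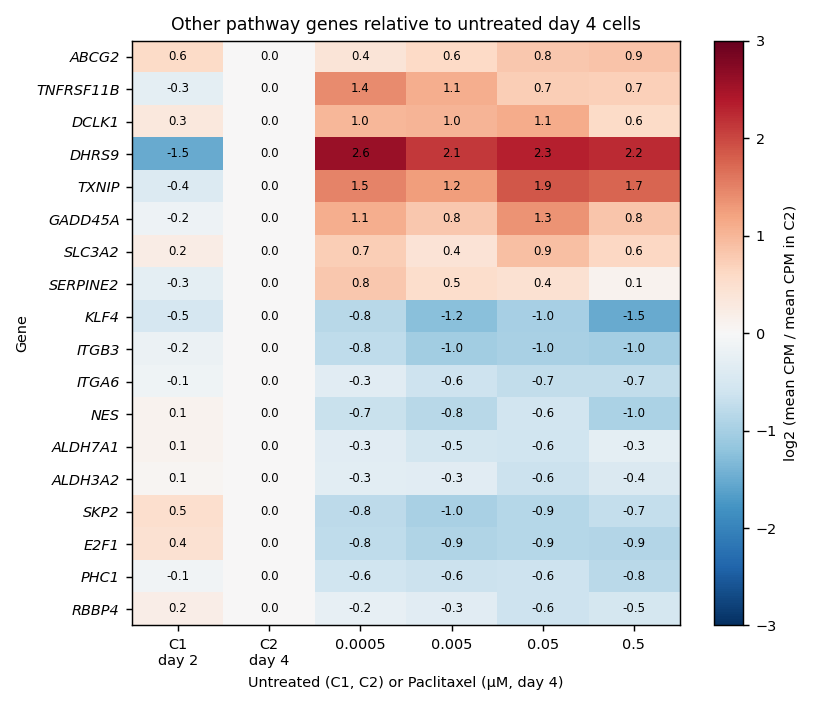
log2 of the mean CPM of each condition over the mean in C2 for 18 genes of the pathway lists, printed in each cell and coloured from blue (lower) to red (higher). DHRS9, TXNIP and GADD45A are higher at all 4 doses and KLF4, SKP2 and E2F1 lower. None of these 6 was called in C2 against C1, where 0.325% of all genes were, which cannot show that they stayed level. Mean CPM in C1 and C2 were 0.107 and 0.307 for DHRS9, 113 and 149 for TXNIP and 32.5 and 36.3 for GADD45A. They were 110 and 154 for KLF4, 42.7 and 30.3 for SKP2 and 37.6 and 27.5 for E2F1.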

How the data were processed

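RNA of the 12 samples was extracted with TRIzol and sequenced as paired ends. Per the study's methods, the authors trimmed reads with Trimmomatic 0.39 (reads under 36 bases dropped), aligned them to GRCh37 (hg19) with STAR 2.7.5 and counted unique reads over exons. The values used are those deposited counts, 1 whole number per gene and sample, not normalized. The strand setting and the annotation release are not given in the sources used here. The 12 single-sample files held the same counts.

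Counts were fitted with edgeR 4.0.16 in R 4.3.3 (TMM scaling, filterByExpr by condition, robust quasi-likelihood tests, Benjamini-Hochberg adjustment over all genes tested, threshold 0.05), in 1 model of the 6 conditions over 12 samples with a BCV of 15.6% and 6 residual degrees of freedom. The slope used the 8 treated samples alone. CPM are counts over TMM effective sizes, and lengths are union exons of GENCODE v44lift37, which is not the authors' annotation. Ratios of counts have exact binomial intervals of 95%, which cover counting error only. The fit was tested on simulated data first. The members and lists were chosen with earlier results of these data known. Of each list, the up to 3 called genes of at least 1 CPM with the largest change in each direction in the mean of the doses, and up to 2 at 0.5 µM, were named by rule, or the 2 most abundant where none was called. Genes named outside it are marked. The alternatives were DESeq2 1.42.0, RLE scaling, genes with at least 1 count in total, a replicate block, only the 4 samples of a comparison, C1 and C2 as the control, GC and length offsets, and leaving out each sample, where the lone sample left in its condition is assumed to vary like the other groups. The genes most like PROCR are not reported here.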

Additional observations from a re-analysis of the deposited data

How the results depend on the processing

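The number of the 8 tested members called, 0 in each comparison but 1 at 0.5 µM, changed with the processing. At 0.0005 µM it was 2 with only the 4 samples of the comparison and 1 with C1 and C2 as the control or with GC and length offsets. With only those 4 samples 6.78% of all genes were called higher and 5.24% lower. At 0.005 µM it was 1 with DESeq2, with genes of at least 1 count in total or with only 4 samples, and 3 with C1 and C2 as the control, which also gave 1 at 0.05 µM. That control called 9.31% of all genes higher and 4.16% lower at 0.005 µM. At 0.5 µM it was 2 with at least 1 count, the replicate block, only 4 samples, C1 and C2 as the control or the offsets. These settings called 3.58% to 9.49% of all genes higher and 2.16% to 5.75% lower at 0.5 µM. In the mean of the doses it was 1 with DESeq2, at least 1 count or the block, and 3 with C1 and C2 as the control or the offsets. In that mean C1 and C2 as the control called 14.1% of all genes higher and 12.2% lower, and the offsets 8.22% and 5.6%. In C2 against C1 it was 1 with the offsets, and in the slope 1 with DESeq2, RLE scaling or the offsets. Leaving out 1 sample gave 0 to 1 at 0.0005 and 0.005 µM, 0 at 0.05 µM, 0 to 2 at 0.5 µM and in the mean, 0 to 3 in C2 against C1 and 0 to 1 in the slope. The cause was not tested.

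The numbers of all genes called were 592, 827, 2100 and 1596 from the lowest to the highest dose, 2460 in the mean, 82 in C2 against C1 and 789 in the slope. In the same order they were 1173, 1362, 2666, 2301, 3021, 243 and 1519 with DESeq2 and 632, 838, 2095, 1611, 2480, 77 and 860 with RLE scaling. They were 1480, 1909, 2761, 2807, 3372, 390 and 1462 with at least 1 count, and 1094, 1330, 2607, 2366, 3078, 153 and 1236 with the offsets. Outside the slope 48909 genes were tested with at least 1 count and 22268 with the offsets, against 25249 in the main fit. With C1 and C2 as the control the doses and the mean gave 2085, 3401, 4328, 3624 and 6629, and with only 4 samples the doses and C2 against C1 gave 2624, 2592, 2902, 2578 and 0, where fewer genes and samples entered. Leaving out 1 sample gave 144 to 2552, 85 to 3316, 321 to 4843, 129 to 5046, 237 to 5664, 47 to 2682 and 123 to 1008.

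Replicate numbers did not pair the samples: over 15 pairs of conditions the deviations of same-numbered samples correlated at -0.579 to 0.573 and 7 pairs were over 0.1. With the replicate as a block the numbers called were 673, 896, 2182, 1806, 2696, 92 and 421, and SOX9 at 0.5 µM was called (adjusted p = 0.0361).

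Some differences that were not called changed sign, in C2 against C1 also larger ones (ALDH1A3 at -0.41 and PROCR at -0.29). With C1 and C2 as the control ALDH1A3 was at -0.14 at 0.005 µM and -0.0313 at 0.05 µM, and CD44 at -0.0993 at 0.05 µM. With GC and length offsets BMI1 was at 0.0198 at 0.005 µM, 0.099 at 0.05 µM and 0.0384 in the mean, CD44 at 0.0275 at 0.005 µM and 0.104 in the mean, SOX13 at 0.12 and CTNNB1 at 0.144 in the mean. SOX4 at 0.5 µM was at -0.0089 with DESeq2, -0.00887 with RLE scaling and -0.00118 with at least 1 count, where SOX13 was at 0.000502 and CTNNB1 at 0.00428 in the mean. Without 1 sample at a time, ALDH1A3 ran from -0.0908 to 0.197 at 0.005 µM, -0.0441 to 0.332 at 0.05 µM and -0.0805 to 0.416 at 0.5 µM, CD44 from -0.0552 to 0.0583 at 0.05 µM and -0.0911 to 0.0226 in the mean, SOX4 from -0.16 to 0.172 and PROCR from -0.135 to 0.0030 at 0.5 µM, MYC from -0.0202 to 0.0522 in the slope, and SOX13 from -0.16 to 0.139 and CTNNB1 from -0.12 to 0.0999 in the mean. In C2 against C1 the ranges were -0.462 to 0.137 for CD44, -0.716 to 0.105 for ALDH1A3, -0.742 to 0.894 for PROM1, -0.46 to 0.605 for SOX9, -0.218 to 0.373 for MYC, -0.244 to 0.0428 for BMI1 and -0.55 to 0.065 for PROCR. Of the member values under the alternatives, 900 kept their direction and side of the threshold, 43 crossed it upward, 11 downward and 42 changed sign.

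Of the 21 list genes named by rule and called in the mean, 13 lost the call without C2 replicate 2, between 4 and 12 without a treated sample, 4 with the offsets, 2 with at least 1 count, 1 with RLE scaling, 1 with the block (RARB) and 0 with DESeq2. Of the 11 called at 0.5 µM, 8 and 9 lost it without C2 replicate 1 and 2. Depth limits PROM1 and ALDH1A1, which had at most 15 counts in a sample.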
